A study of Mus musculus with 8 samples.

Results

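In mouse liver taken at zeitgeber time (ZT) 10, 6678 of the 57865 chromatin loops listed for tagged REV-ERBα spanned over 500 kb. These long loops were chosen by the distance between the midpoints of their anchors, at any anchor width, and mitochondrial loops were left out. They made up 11.5% of the library's loops and 6.67% of its 320427 paired-end tags (PETs). A PET is a sequenced ligation junction whose ends map to different places, and the number of PETs of a loop is the measurement here. In 325 long loops both anchors were at least 700 bp wide, in 539 only 1 was, and in 5814 neither was. The 325 are called wide long loops below. Of them, 295 spanned 500 kb to 2 Mb and 30 spanned over 2 Mb.

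The library came from 1 sample of REV-ERBa3HA/3HA knock-in liver, in which the endogenous receptor carries an HA tag that the anti-HA beads recover. A second knock-in library was taken at ZT22. The other 4 libraries, all at ZT10, came from REV-ERBaf/fREV-ERBbf/f mice given AAV8-TBG-Cre together with AAV8-TBG-3HA-REV-ERBa-WT (WT, 2 libraries) or with the form labelled delhIDR (dhIDR, 2 libraries). The TBG promoter drives expression in hepatocytes, so in these mice other liver cells keep their own receptors and carry no tag. The labels do not say that replicates are separate animals, so the spread between them may be technical. The libraries are of bulk liver, so more cells holding a contact and more contact in each cell cannot be told apart.

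REV-ERBα is a nuclear receptor that represses transcription and closes one of the feedback loops of the circadian clock. In liver its level peaks in the later part of the light phase and is low late in the dark phase, and it binds near many genes of lipid, bile acid and glucose metabolism. In-situ ChIA-PET joins DNA ends that lie close together inside crosslinked nuclei and then keeps the fragments bound by the chosen protein. Within a chromosome, contacts become rarer with distance, and most contacts of regulatory elements stay within domains shorter than a few megabases. The files list no loop of fewer than 3 PETs.

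Anchor sequences are not shown, since no genome sequence was used here. Promoter sequence from RefSeq (GRCm38.p6, which has the coordinates of mm10) was read for genes whose start lay under an anchor of a wide long loop. Of the 325 wide long loops, 33 (10.2%) covered a protein-coding gene start and 4 covered one at both anchors. The sequences below are the 250 bases before the start, 5′ to 3′ on the gene's strand, with AGGTCA or CACGTG in capitals where they occur on either strand. They were chosen after the loops had been seen. The first pair belongs to a loop of 4 PETs over 604 kb that joined Cyp27a1, a mitochondrial sterol hydroxylase of bile acid synthesis, to Dnpep, an aminopeptidase. The second pair belongs to a loop of 4 PETs over 1309 kb that joined Bbip1, a subunit of a ciliary transport complex, to Acsl5, a long-chain acyl-CoA synthetase. The anchor at Bbip1 also covered the start of Shoc2, whose sequence is not shown. Fgg, the fibrinogen gamma chain, and Bcl6, a transcriptional repressor, each had their start under 1 anchor of a wide long loop.
Cyp27a1, chr1:74713285-74713534, plus strand: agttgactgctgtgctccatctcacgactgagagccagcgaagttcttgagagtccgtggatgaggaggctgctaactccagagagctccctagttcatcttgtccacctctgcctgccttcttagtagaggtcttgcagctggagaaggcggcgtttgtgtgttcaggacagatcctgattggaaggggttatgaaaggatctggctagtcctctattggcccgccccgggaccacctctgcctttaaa
Dnpep, chr1:75317638-75317887, minus strand: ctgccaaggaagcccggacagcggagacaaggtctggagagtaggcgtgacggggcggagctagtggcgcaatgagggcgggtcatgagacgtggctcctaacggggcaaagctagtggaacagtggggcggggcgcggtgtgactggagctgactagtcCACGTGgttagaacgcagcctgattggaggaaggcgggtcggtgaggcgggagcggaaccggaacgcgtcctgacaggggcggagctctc
Bbip1, chr19:53944628-53944877, minus strand: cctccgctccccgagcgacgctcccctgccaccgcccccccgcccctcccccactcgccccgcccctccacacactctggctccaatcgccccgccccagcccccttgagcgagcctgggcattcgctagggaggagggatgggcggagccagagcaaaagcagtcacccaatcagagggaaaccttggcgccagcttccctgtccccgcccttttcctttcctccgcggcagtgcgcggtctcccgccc
Acsl5, chr19:55253119-55253368, plus strand: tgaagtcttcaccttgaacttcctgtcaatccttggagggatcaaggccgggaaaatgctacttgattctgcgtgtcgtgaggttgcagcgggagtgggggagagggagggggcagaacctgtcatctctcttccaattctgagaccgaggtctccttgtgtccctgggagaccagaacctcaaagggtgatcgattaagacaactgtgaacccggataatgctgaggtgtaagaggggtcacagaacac
Fgg, chr3:83007474-83007723, plus strand: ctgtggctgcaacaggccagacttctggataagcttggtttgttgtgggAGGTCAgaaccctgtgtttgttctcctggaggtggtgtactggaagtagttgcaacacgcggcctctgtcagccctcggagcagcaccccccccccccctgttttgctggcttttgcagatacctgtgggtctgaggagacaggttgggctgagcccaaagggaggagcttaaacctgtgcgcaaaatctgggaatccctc
Bcl6, chr16:23988853-23989102, minus strand: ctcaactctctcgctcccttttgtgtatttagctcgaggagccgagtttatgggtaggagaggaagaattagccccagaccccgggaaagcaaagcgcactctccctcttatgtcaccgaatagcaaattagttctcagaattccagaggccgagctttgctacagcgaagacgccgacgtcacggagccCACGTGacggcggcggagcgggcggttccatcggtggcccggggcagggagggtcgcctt

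AGGTCA, the core hexamer of nuclear receptor sites, was present in 4 of the 39 promoter windows under wide long anchors (10.3%) and in 14.7% of all 21263 windows of protein-coding genes. Windows here run from 250 bases before to 50 bases after the start, and both strands were read. CACGTG, the E-box of the clock activators, was present in 4 of 39 (10.3%) against 7.84% of all windows. The monomeric REV-ERB response element, which extends the hexamer by an A/T-rich stretch on its 5′ side, was in 0 of the 39 and in 0.155% of all windows. Its variant with a changed first hexamer base was in 0 and 0.160%, and the CTCF core motif in 0 and 2.34%. The letters describe these windows only, and the rest of each anchor was not read.

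The width and span of the anchors define the classes, so the values that follow describe them without a test. Long loops had a median anchor of 616 bp, with the narrowest anchor at 518 bp and the widest at 3604 bp. The median anchor was 1070 bp in the wide long loops and 611 bp in the other 6353. The longest loop spanned 188 Mb. At the threshold itself, 51 loops lay between 490 and 500 kb and 35 between 500 and 510 kb, of which 15 and 12 had both anchors wide. Their mean PETs were 3.53 and 3.40. Around the width limit, 2 long loops had a narrower anchor of 690 to 699 bp and 6 had one of 700 to 709 bp.

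Long loops were weak and mostly narrow, and the wide ones among them lay near the short end. Of all ZT10 loops, 71.5% had both anchors wide, against 4.87% (95% Wilson interval 4.38 to 5.41%) of the long loops. The share fell with span, from 84.9% of loops up to 20 kb and 54.3% of those from 200 to 500 kb to 21.6% from 0.5 to 1 Mb, 8.43% from 1 to 2 Mb and 2.22% from 2 to 5 Mb. Above 10 Mb it was 0.332% of 3310 loops. The median span was 746 kb for the wide long loops and 11034 kb for the others.

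**Figure D1:**
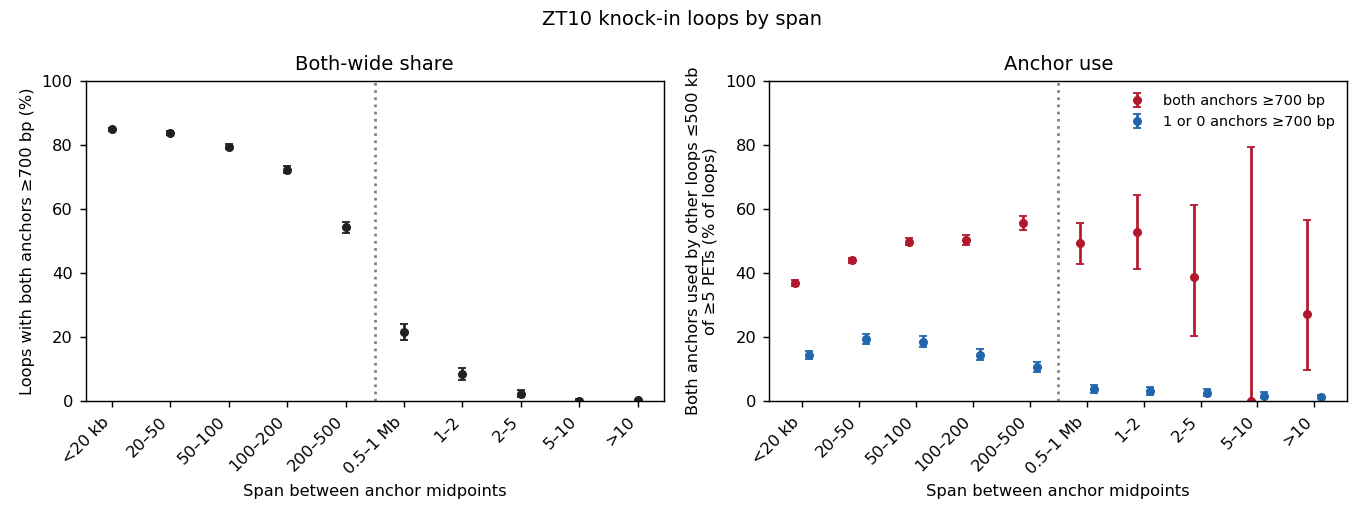
ZT10 knock-in loops by span, with the share that has both anchors at least 700 bp wide (left) and the share whose anchors are both used by other loops of at most 500 kb and 5 or more PETs (right), with 95% Wilson intervals; the dotted line marks 500 kb. The both-wide share falls from 84.9% to below 1%, while anchor use of both-wide loops is 49.3% at 0.5 to 1 Mb and that of the other loops 3.76%.

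Wide long loops also held more PETs. Their mean was 3.85 PETs, against 3.17 for the other long loops, and 46 of 325 (14.2%) reached 5 PETs against 133 of 6353 (2.09%), while 28.3% of all ZT10 loops did. Of the 325, 212 had 3 PETs, 67 had 4 and 6 had 10 or more. Beyond 2 Mb, wide loops had 3 or 4 PETs except for 2 loops on chromosome 17. Width and PETs of one loop share the same reads, so neither measure is independent of the other.

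**Figure D2:**
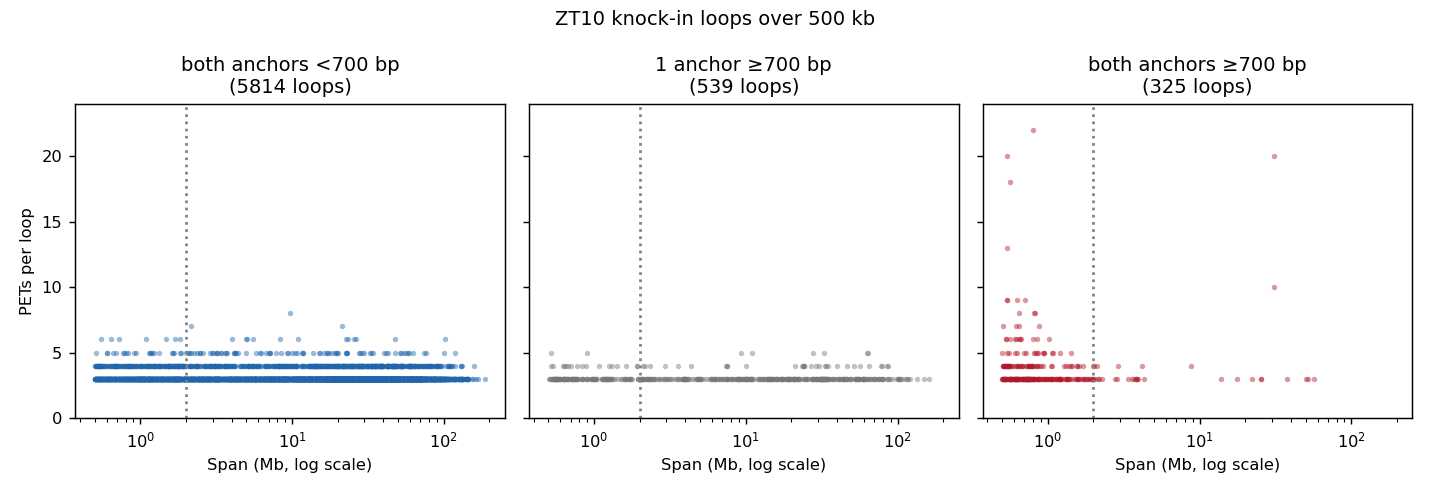
PETs per loop against span (log scale, Mb) for the 6678 long ZT10 loops, in panels by how many anchors are at least 700 bp wide; each point is 1 or more loops and the dotted line marks 2 Mb. Loops of more than 8 PETs appear only where both anchors are wide, and all of these but 2 lie below 2 Mb.

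Anchors of wide long loops were often anchors of strong shorter loops as well. Each anchor was compared with the anchors of the 16169 other loops of at most 500 kb and 5 or more PETs. Both anchors overlapped such an anchor in 158 of the 325 wide long loops (48.6%, 43.2 to 54.0%). The same held for 133 of the 6353 others (2.09%, 1.77 to 2.48%). Different shorter loops could meet each end of a long loop. The background over all ZT10 loops was 34.4%. No anchor was shared in 13.8% of the wide long loops and in 82.6% of the others. From 500 kb to 2 Mb, 148 of 295 wide loops (50.2%) and 54 of 1564 others (3.45%) had both anchors in such use. Beyond 2 Mb the counts were 10 of 30 (33.3%, 19.2 to 51.2%) and 79 of 4789 (1.65%).

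The wide long loops resembled wide loops of 100 to 500 kb in this respect. At 3 or 4 PETs, 126 of 279 wide long loops (45.2%) had both anchors in use, against 1886 of 4243 wide loops of 100 to 500 kb (44.4%), and the intervals overlapped. Loops without both anchors wide had 2.06% and 12.5% at the same PETs. The share varied with the narrower anchor, being 39.0% at 700 to 800 bp, 41.6% at 800 to 1000 bp, 58.5% in the next class, which starts at 1000 bp, and 61.1% in the 18 loops with the widest anchors, and a wider anchor has more room to overlap another. It also depended on the limits: with a width limit of 600 bp it was 13.8% of 1424 loops, and with shorter loops of 10 or more PETs it was 28%. Lowering the width limit thus raised the number of wide long loops from 325 to 1424.

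Some wide long loops closed a path that shorter loops already traced. Moving from anchor to anchor through loops of at most 500 kb and 5 or more PETs, 32 of the 295 wide loops up to 2 Mb (10.8%) had their ends joined, 24 of them by 2 steps, against 4 of 1564 others (0.256%). Counting only loops whose anchors both lie on such shorter loops, the shares were 32 of 150 (21.3%) and 4 of 57 (7.02%). Beyond 2 Mb, 0 of 30 wide and 0 of 4789 other loops were joined this way. A step covers at most 500 kb, so a longer span needs more steps. No joined loop took more than 4 steps, and 31 of the 32 joined wide loops spanned 500 kb to 1 Mb. Span thus limits these counts, including those beyond 2 Mb. Wide long loops also ran side by side. Of the 325, 83 (25.5%) lay in 28 bundles, meaning that both midpoints were within 50 kb of those of another loop of the same class, whereas 28 of the 6353 others (0.441%) did. Up to 2 Mb the shares were 27.5% of the wide and 1.53% of the other long loops. In 10 bundles there were 3 or more loops.

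The strongest long loop of the library lay on chromosome 10 and had 22 PETs over 799 kb. It ran from chr10:96124538-96126936, 79.0 kb from Eea1, to chr10:96924013-96925889, 3.82 kb from the predicted gene Gm46240, and its span contains Btg1, an antiproliferative cofactor. From the same left anchor a loop of 18 PETs reached chr10:96684781-96688268, 62.0 kb from Btg1. Another loop, of 9 PETs, went on from there to chr10:97312236-97314549. In all, 8 wide long loops with 69 PETs lay in this stretch, beside 37 shorter loops of 5 or more PETs, the strongest with 72. In the other libraries the long loops of the stretch numbered 3 at ZT22, 7 and 7 for WT, and 4 and 6 for dhIDR, of which 1 was wide, with 3 PETs in WT replicate 1. None of the 3 ZT10 loops named here was listed in another library.

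Onecut1, which encodes the hepatocyte transcription factor HNF6, had the most wide long PETs of any gene, with 32 PETs in 3 loops within 5 kb of its ends. The largest held 20 PETs and joined chr9:74323957-74326734, 40.8 kb from Wdr72, to chr9:74866294-74869449 inside Onecut1, 543 kb away. A neighbour of 9 PETs shared its left anchor. Shorter loops at the ends of Onecut1 held 77 PETs. Long loops there had 0 PETs at ZT22, 6 and 0 for WT and 3 and 0 for dhIDR, none with both anchors wide. The ZT10 value was above that of each other library, but the gene was named for that value, which largely fixed this order. All the other libraries also list fewer wide loops.

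Of the 4 stretches drawn, the one around Tle3, a Groucho-family corepressor, held the most wide long loops. Here 13 wide long loops held 53 PETs. Of these, 7 used 1 merged anchor at chr9:61842533-61845418, 67.9 kb from Rplp1 and outside the body of any protein-coding gene. Tle3 itself had 0 wide long loops within 5 kb of its ends. The strongest had 8 PETs over 812 kb and started at chr9:61031064-61032497. A member of 3 PETs, chr9:61305839-61307028 to chr9:61840774-61841668, was the only wide long loop matched at both anchors in an AAV library, with 4 PETs in dhIDR replicate 1. Other libraries listed 1 or 2 long loops in the stretch. None of those was wide.

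Near Id2, an inhibitor of helix-loop-helix factors, 12 wide long loops with 47 PETs left several places around the gene and its flank. They met at 4 merged anchors, used by 6, 3, 2 and 1 of them. The nearest protein-coding gene to these anchors was Rnf144a, at 478 to 520 kb. The strongest loop had 8 PETs over 648 kb. Chromosome 12 held 33 of the wide long loops (10.2%) and 4.29% of all ZT10 loops. Long loops in this stretch numbered 0 at ZT22, 1 and 3 for WT and 2 and 4 for dhIDR, again with none wide.

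**Figure D3:**
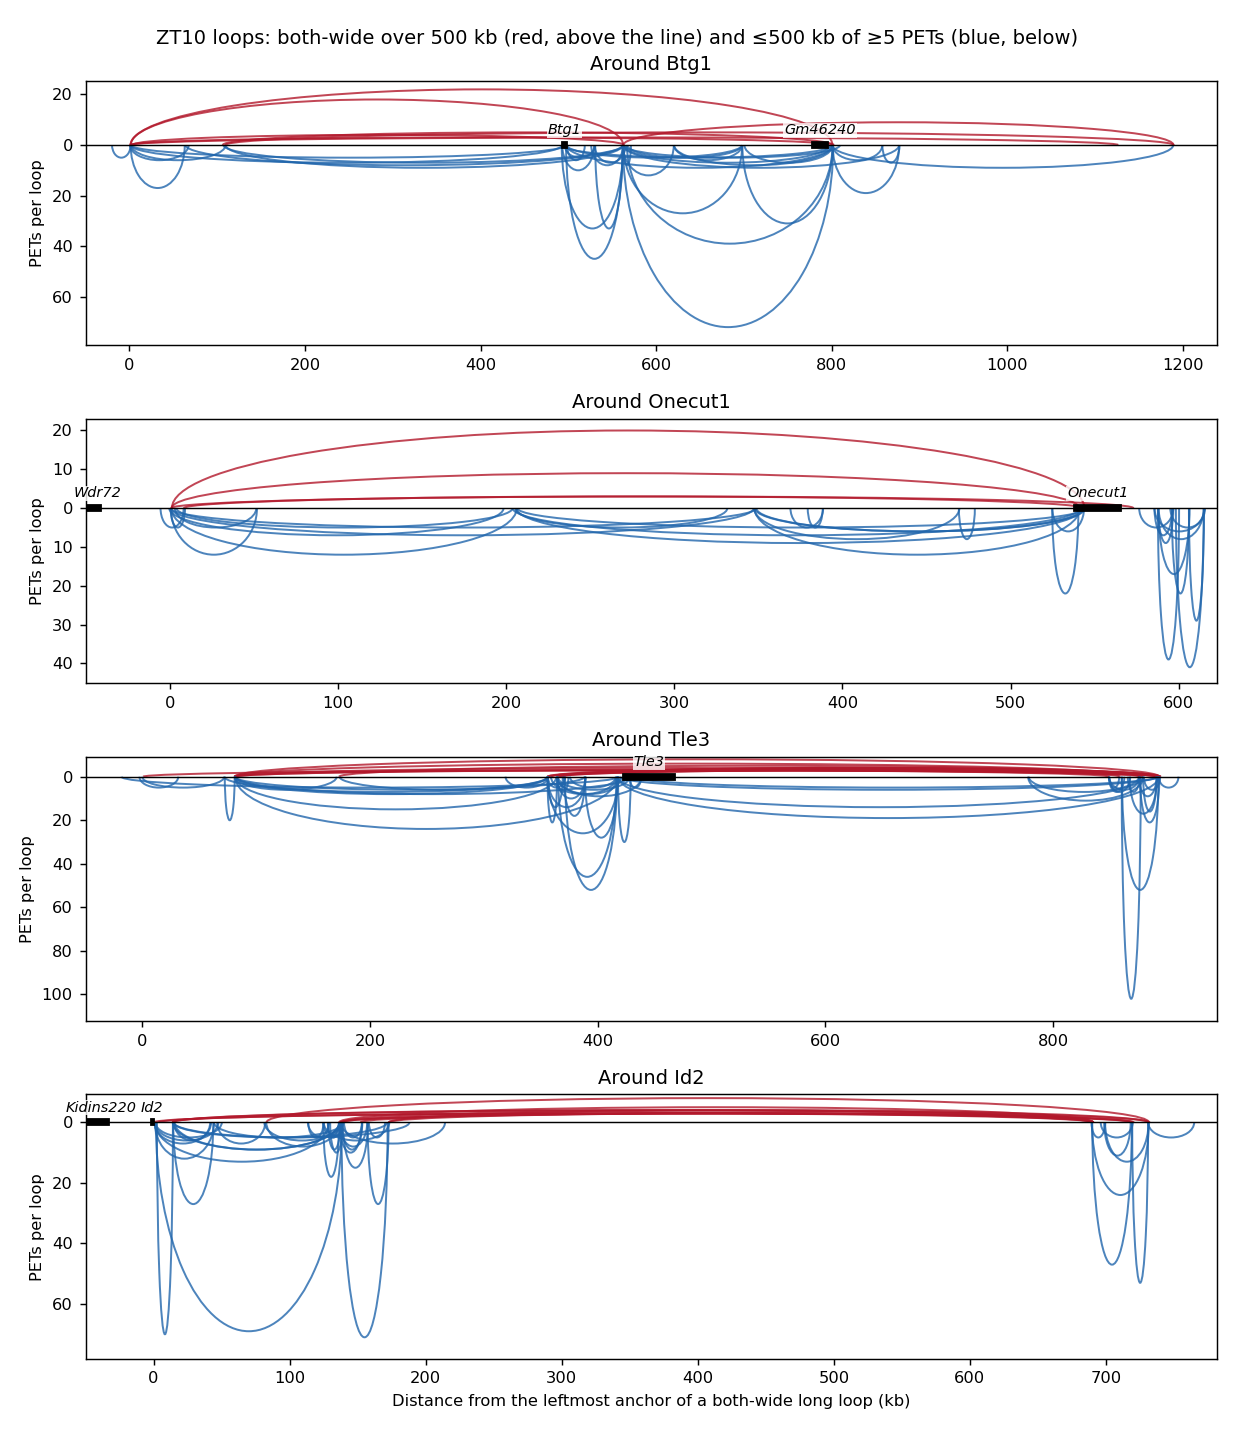
Loops of the ZT10 knock-in library around Btg1, Onecut1, Tle3 and Id2, against distance (kb) from the leftmost wide long anchor; arcs above the line are loops over 500 kb with both anchors wide, arcs below are loops of at most 500 kb and 5 or more PETs, arc height is PETs and black boxes are gene bodies. Many long arcs end on places where shorter arcs also end. No such shorter arc is drawn at 2 Btg1 anchors of wide long loops, with 4 and 3 PETs, or at an Onecut1 anchor at 573 kb, with 3. PETs reach 22 above the line and 102 below.

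Other genes with many wide long PETs follow. Sgk1, a glucocorticoid-induced kinase, had 25 wide long PETs in 4 loops but 3 shorter PETs. Its strongest loop, of 13 PETs over 540 kb, reached chr10:21459874-21461489, 63.3 kb from Aldh8a1, and a loop with anchors within 10 kb of these had 3 PETs in WT replicate 2. Myc had 14 PETs in 3 loops, the strongest with 8 PETs over 819 kb to a place with no other protein-coding gene nearer than Myc itself. A loop of 9 PETs left the body of Prdm1, a transcriptional repressor, and ended 48.4 kb from Prep, 540 kb away. Map4k4, a stress kinase, had 15 PETs and Dsc2, a desmosomal cadherin, had 13. Tor3a, an endoplasmic reticulum ATPase, had 18 PETs in 4 loops, of which 1 joined it to Qsox1, a secreted sulfhydryl oxidase, with 6 PETs.

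Over the 21887 protein-coding genes, 0.841% had a wide long loop within 5 kb of an end and 13.2% another long loop. Of the core clock list, 1 of 20 genes had a wide long loop at an end and 9 of 20 (45%) had another long loop. The first was Npas2, a partner of the clock activator ARNTL and a known target of REV-ERBα, with 14 PETs in 2 loops. Its main loop had 9 PETs over 709 kb and joined chr1:39192086-39193948, where 22 shorter loops of 5 or more PETs held 432 PETs, to chr1:39901745-39903218 in Map4k4, where 1 shorter loop held 10. Loops up to 500 kb at the ends of Npas2 held 479 PETs at ZT10, 10 at ZT22, 20 and 13 for WT and 0 and 3 for dhIDR. Besides the 14 PETs in wide loops, other long loops at Npas2 held 19 PETs at ZT10, and all long loops there held 0 at ZT22, 3 and 6 for WT and 4 and 0 for dhIDR. The ZT10 knock-in library was highest for both spans. Npas2 was named for its wide long PETs in that library, which partly fixed its rank for long loops. These are raw counts, and that library also lists the most PETs. The long values of WT and dhIDR overlapped. Arntl, singled out after its values were seen, had no long loop at its ends, but 2 wide long loops of 3 PETs each joined its gene body to that of Parva, over 757 and 810 kb. Their anchors in Arntl carried 115 and 45 PETs in shorter loops of 5 or more PETs.

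In the lipid and sterol list, 2 of 34 genes (5.88%) had a wide long loop and 7 another long loop. Insig2, which retains the sterol sensor complex in the endoplasmic reticulum, had 12 PETs in 3 loops. One of these, of 5 PETs over 1211 kb, joined it to Dbi, an acyl-CoA-binding protein, and the longest, of 3 PETs over 2.04 Mb, reached the flank of Inhbb. The other member was Cyp27a1. In the glucose and insulin list, Irs2, an insulin receptor substrate, had 1 wide long loop of 4 PETs. Fbp1, an enzyme of gluconeogenesis, and Igfbp1, a secreted binding protein of insulin-like growth factors, had 1 each of 3 PETs. Shorter PETs were 494 at Irs2, 132 at Fbp1 and 240 at Igfbp1. In the fatty acid oxidation list 0 of 17 genes had one, and in the xenobiotic list 1 of 18 (5.56%), Cyp2b10, with 3 PETs. Another long loop was at 5 and 2 genes of these lists.

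In the liver transcription factor list the 2 of 21 were Onecut1 and Bcl6, the latter with 9 PETs in 2 parallel loops of 4 and 5 PETs over 1070 and 1067 kb. Of the secreted hepatocyte proteins, 2 of 22 had a wide long loop. Fgg had 6 PETs in a loop over 1025 kb to Asic5, an ion channel gene, at an anchor where shorter loops of 5 or more PETs held 747, and Ttr, the thyroxine carrier, had 3. Of the acute-phase genes, 2 of 19 had one: haptoglobin (Hp) with 6 PETs in 2 loops, and Orm3, an orosomucoid, with 4. The anchor near Hp lay inside the neighbouring gene Txnl4b, which had the same 6 PETs in 2 loops. Of the hepatocyte markers, 1 of 8 (Ttr) had a wide long loop, and none of the lymphocyte (0 of 5), cholangiocyte (0 of 4), stellate cell (0 of 5), endothelial (0 of 6) or Kupffer cell (0 of 6) markers did. Other long loops touched 2 of the hepatocyte, 2 of the lymphocyte, 1 of the stellate cell and 1 of the Kupffer cell markers. Shorter PETs at the marker lists were 1565 for hepatocytes, 66 for endothelial cells, 32 for cholangiocytes, 11 for stellate cells, 6 for lymphocytes and 0 for Kupffer cells, whose 6 markers were all at 0. Their part in the long loops was not tested.

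Over all members, 150 of the 325 wide long loops (46.2%, 40.8 to 51.6%) had an anchor within 5 kb of a gene end and 32 (9.85%) had both. These shares were close to the 45.5% and 10.7% of all ZT10 loops. Among the other long loops they were 35.6% and 5.97%. With windows of 2 and 25 kb the wide share was 31.4% and 72.6%. The 325 loops touched 184 genes, of which 90 (48.9%) had 30 or more PETs in shorter loops, against 8.42% of all genes. Merging overlapping anchors gave 548 places. Of these, 47.6% lay in bodies of protein-coding genes and 28.3% lay more than 50 kb from any protein-coding gene. Shorter loops of 5 or more PETs touched 51 of the 60 places with 2 or more wide long loops and 301 of the 488 places with 1.

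Few protein-coding genes lay wholly between the anchors. Only such genes were counted, so a gene that reached into an anchor was left out, and a count of none does not mean gene-free ground. Wide long loops up to 2 Mb had a median of 2.27 genes per Mb between their anchors, against 5.56 for the other long loops up to 2 Mb, and 67 of 295 (22.7%) against 189 of 1564 (12.1%) had none. The median span of the first was 718 kb and that of the second 965 kb, and a shorter span more often holds no gene.

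Wide loops over 2 Mb were few and, with 1 exception, weak. The exception was a pair on chromosome 17 of 20 and 10 PETs over 31.1 Mb. Their left anchors, chr17:39845616-39849219 and chr17:39842921-39844173, lay on and beside Rn18s-rs5, a pseudogene of the 18S ribosomal RNA annotated at chr17:39846354-39848202. Both ended at chr17:70963162-70964293 within the long noncoding RNA gene Gm46595. The ZT22 library listed the same pair of places with 14, 8 and 5 PETs, and the 4 AAV libraries did not list it. Reads of repeated ribosomal sequence can map to more than 1 place, and how they were placed is not given in the sources used here. The remaining wide loops over 2 Mb had at most 4 PETs. Examples are Orm3 to Astn2 over 2.02 Mb, Slc12a7 over 4.21 Mb and Elovl2, a fatty acid elongase, over 2.90 Mb, each with 4 PETs, and Socs2, a cytokine signalling inhibitor, over 3.94 Mb with 3.

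The strongest long loops without both anchors wide had 6 to 8 PETs. The first, of 8 PETs over 9.69 Mb, joined chr2:86066568-86067186 to chr2:95752204-95752840, places 7.52 kb from an olfactory receptor gene and 565 kb from Lrrc4c. One of 7 PETs over 21.2 Mb joined the ends of Gdi2 and Ripor2. In 3 of these 5 loops neither anchor was touched by a shorter loop of 5 or more PETs, in the other 2 only 1 was, and none of the 5 was listed in another library.

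Few long loops recurred in another library. A ZT10 loop was counted as matched when a loop of the other library overlapped both of its anchors. Since a loop must reach 3 PETs to be listed, a loop that is not matched may still have had 1 or 2 PETs there. It may also have been listed at places beside its anchors, without overlapping both. Of the 325 wide long loops, 2 (0.615%) were matched at ZT22, 0 in WT replicates 1 and 2, 1 (0.308%) in dhIDR replicate 1 and 0 in dhIDR replicate 2. Of all ZT10 loops, 0.969% were matched at ZT22, 0.297% and 0.358% for WT and 0.617% and 0.266% for dhIDR. Both ZT22 matches were the loops at Rn18s-rs5, and without that stretch 0 of 323 were matched. Of the 6353 other long loops, 0 were matched in any of the 5 libraries.

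Widening each anchor by 10 kb, an alternative chosen after the data were seen, gave 4 matched wide long loops at ZT22, 3 and 6 for WT and 4 and 0 for dhIDR. The matched shares of all ZT10 loops were then 10.9%, 4.08%, 6.17%, 9.53% and 5.25%. With overlapping anchors, the matched share of wide long loops differed between WT and dhIDR by -0.154 percentage points (exact permutation test, two-sided, p = 1, n = 2 each). The smallest p that 2 libraries against 2 allow is 0.333, so this comparison cannot pass 0.05. With the anchors widened by 10 kb the difference was 0.769 points, the other direction.

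The wide long anchors, taken singly, were listed elsewhere about as often as those of shorter wide loops. Of the 548 places, 16.4% carried a loop at ZT22, 10.4% and 14.4% for WT and 20.6% and 15.0% for dhIDR. For 6944 places of wide loops of 100 to 500 kb the shares were 17.7%, 9.58%, 14.2%, 18.5% and 12.4%, with overlapping intervals in each library.

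The other libraries listed many more long loops, and almost none were wide. Long loops made up 50.4% of the loops at ZT22, 56.5% and 55.6% for WT and 52.9% and 58.3% for dhIDR, against 11.5% in the ZT10 knock-in library. Wide loops were 0.327% of the long loops at ZT22 (67 loops), 0.257% and 0.136% in WT (45 and 44 loops) and 0.0591% and 0.0286% in dhIDR (15 and 7 loops). The WT shares lay above the dhIDR shares, by 0.153 percentage points (exact permutation test, two-sided, p = 0.333, the smallest possible; 0.556 adjusted over 5 measures). With a width limit of 600 bp the difference was -1.07 points, in the other direction. Among loops up to 500 kb the wide share moved the same way, with 80.2% in the ZT10 knock-in, 23.4% at ZT22, 13.2% and 7.69% for WT and 3.35% and 1.56% for dhIDR.

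Set against the strong shorter anchors of the ZT10 knock-in library, the long loops of the other libraries seldom touched them at both ends. None of the 67 wide long loops at ZT22, the 45 and 44 of WT or the 15 and 7 of dhIDR did so. Of their other long loops, 0.108% did at ZT22, 0.0858% and 0.0775% for WT and 0.166% and 0.147% for dhIDR. In the ZT10 knock-in library itself, where loops and anchors come from the same reads, the shares were 48.6% and 2.09%.

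**Figure D4:**
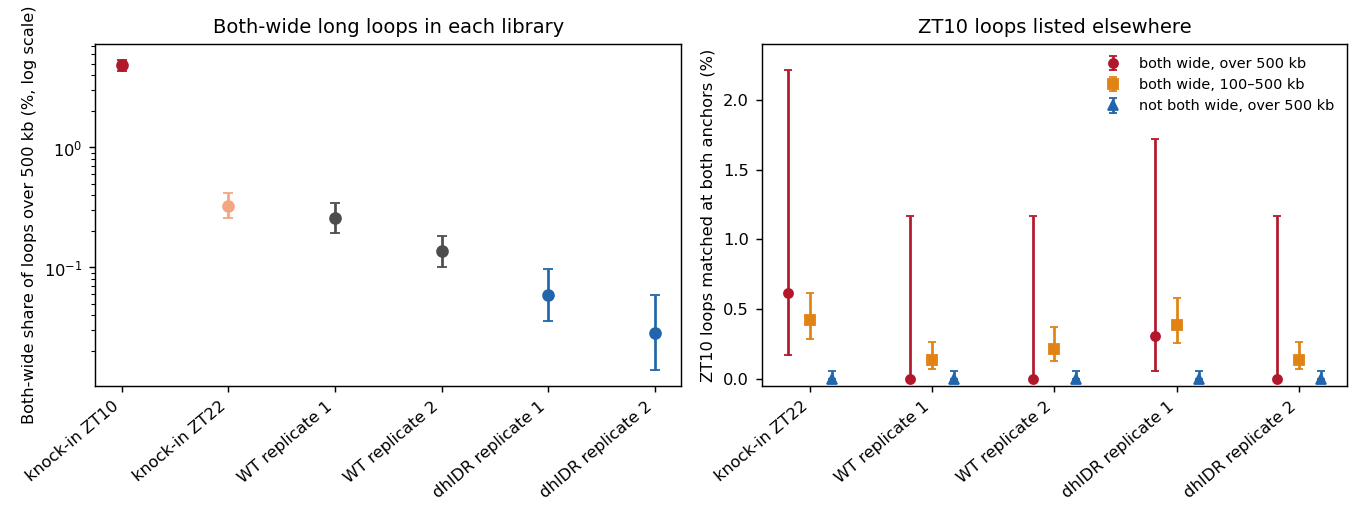
Left, the share of loops over 500 kb that have both anchors at least 700 bp wide in each of the 6 libraries (log scale); right, the share of ZT10 knock-in loops overlapped at both anchors by a loop of each other library, by class; points with 95% Wilson intervals, which cover counting error only. The left panel falls from 4.87% in the ZT10 knock-in to 0.0286% in dhIDR replicate 2, and in the right panel no point lies above 0.615%.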

How the data were processed

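In-situ ChIA-PET of mouse liver used anti-HA beads: nuclei were crosslinked, cut with AluI, religated, sheared and immunoprecipitated, per the labels' protocols. Of the 8 samples, 6 were used; those with anti-CTCF (2) are not analysed here. Each file deposited by the authors lists pairs of anchor intervals with a raw count of PETs, neither normalized nor pooled, and with a minimum of 3. The submitters' processing notes name mm10 as the build. The aligner, duplicate filter and loop caller are not given in the sources used here.

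Listed PETs on nuclear chromosomes ranged from 104161 to 320427 per library, over 31033 to 58102 loops. They are not sequencing depth, and since PCR reads are not independent molecules, the 95% Wilson intervals cover counting error only. Span is the distance between anchor midpoints, wide means 700 bp or more, and anchors counted as shared when they overlapped by 1 bp or more. Loops were given to the 21887 protein-coding genes of GRCm38.p6 (RefSeq) with either end inside 5 kb of an anchor, as the table has no strand. All 205 entries of 14 gene lists matched, 1 by a synonym. The overlap functions were tested on simulated loops. Python 3.11.15, pandas 2.3.3, numpy 2.4.6 and scipy 1.17.1 were used. WT and dhIDR were compared by exact permutation over libraries.

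Named loops were the 12 wide ones with the most PETs in each of the 500 kb to 2 Mb and over 2 Mb classes, the 5 strongest others and every matched wide one. Named genes were the 10 with the most wide long PETs and 2 per list, with the 10 merged anchors in most loops. Fbp1 of the glucose and insulin list was named in addition to these. Promoters were to come from named loops with gene starts at both anchors; there were none, and those shown were picked later, as were the stretches around 4 genes. Members and lists were chosen with earlier results of these data known. Alternatives changed the width, PET, span, overlap and gene-window limits and left out a multicopy stretch of chromosome 11 that held 0 long loops. A result of the glucose and insulin list is not reported here.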

Additional observations from a re-analysis of the deposited data

How the results depend on the processing

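Of 87 alternative values, 62 kept their direction and, where no test applied, stayed within the interval of the value reported. Some of the 62 had no room to move, so the count overstates how far the results held. A replicate block leaves a difference unchanged, and the chromosome 11 stretch that was left out held 0 long ZT10 loops. The both-anchor use of wide long loops was 55.1% with shorter loops of 4 or more PETs, 28% with 10 or more, 41.2% with shorter loops up to 100 kb, 13.8% and 58.9% with wide set at 600 and 1000 bp, and 59.3% for long loops of 4 or more PETs. Across the same alternatives it was 0.944 to 3.18% for the other long loops, each lower than the wide value of that alternative. The share of wide long loops with a gene end was 31.4% and 72.6% with windows of 2 and 25 kb, 66.5% for gene bodies, 37.0% and 37.6% with wide set at 600 and 1000 bp, and 40.7% at 4 or more PETs. The match at ZT22 was 0.140% with wide set at 600 bp and 0% without the Rn18s-rs5 stretch (chosen after the data were seen). The match in dhIDR replicate 1 was 0% under the stricter overlap of the narrower anchor, with wide set at 1000 bp, and at 4 or more PETs. With anchors widened by 10 kb the match in WT replicate 2 was 1.85%, and the difference between WT and dhIDR in matched share reversed to 0.769 points; leaving out 1 library at a time it ranged from -0.308 to 0. Without dhIDR replicate 1, the only AAV library with a match, it was 0. The difference in wide share of long loops reversed to -1.07 points with wide set at 600 bp, and leaving out 1 library it ranged from 0.0923 to 0.213. The causes were not tested. With replicate numbers as a block, the differences stayed at -0.154 (exact p = 1) and 0.153 points (exact p = 0.5, the smallest that 2 pairs allow). The labels do not say that the numbers pair samples; the replicate differences of WT and dhIDR correlated at 0.48 over 268 bins of 10 Mb. The 3-PET minimum of the files limits every match, since 1 or 2 PETs are not listed.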
